A study of Mus musculus with 12 samples.

Results

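The axon guidance genes of the mouse were taken here as the secreted and membrane-bound cues that steer growing axons and the receptors that read them. They were chosen by name alone: every gene name on the array beginning with Sema, Plxn, Epha, Ephb, Efna, Efnb, Robo, Ntn or Unc5, with Nrp1, Nrp2, Slit1, Slit2, Slit3, Dcc and Neo1. The rule found 74 of the 21186 gene names, carried by 139 probes. They comprised 37 ligands, 35 receptors and 2 genes, Unc50 and Unc5cl, that share the prefix but are not netrin receptors of the Unc5 family.

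RNA came from the entire cerebellum and the entire hippocampus of adult mice of both sexes, aged 3 to 5 months, with 3 mice per genotype and 1 array per tissue sample. En2KO mice (En2-/-) lack the homeobox of En2, a transcription factor gene of midbrain and hindbrain patterning, and are constitutive mutants. En2WT mice were their littermates from heterozygous matings. The original mutants had a mixed 129Sv x C57BL/6 and outbred background and had been crossed at least 5 times to C57BL/6. Both genotypes came from this line, but whether they share the same background near the targeted En2 gene was not tested. Each of the 3 replicate numbers was 1 slide that held all 4 groups. The labels do not say whether the tissues with the same number came from the same mouse.

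On the arrays, 62.3% to 73.0% of 43379 spots were well above background and 0 were saturated. Fixed marker lists followed the labels: 12 of 12 cerebellum markers were higher in the cerebellum and 13 of 14 hippocampus markers were higher in the hippocampus, Calb2 being the exception. The En2 probe lies, per the study's methods, in a part of the gene that the mutation leaves in place, so it does not check the genotype labels. The mean log2 signal of En2 in the cerebellum was 14.15 in En2WT and 14.46 in En2KO. Array position on the slide was the same for a group on every slide, and the image-extraction run differed between tissues, so position and genotype, and run and region, cannot be told apart.

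The list spans several ligand-receptor systems. Semaphorins act through plexins, and the secreted class 3 semaphorins do so mostly with neuropilins as co-receptors. Ephrins are themselves membrane-bound and signal on contact with Eph receptors, with ephrin-A ligands binding mainly EphA and ephrin-B ligands mainly EphB receptors. Slits repel axons through Robo receptors, and netrins attract through Dcc or repel through Unc5 receptors. Netrin-G proteins, although named as netrins, are tethered to the axon membrane and bind their own postsynaptic partners. In the adult brain many of these molecules remain in use at synapses, on blood vessels and in the maintenance of projections.

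Expression is given as quantile-normalized log2 signal, in which 1 unit is a 2-fold difference. A difference has its standard error (SE) from the limma fit, with n = 3 arrays per group. That fit draws the spread of a gene partly from all genes tested, and between regions from all 4 groups. Levels are compared between arrays for 1 probe, never between genes. Testing required a probe well above background on 3 of 3 arrays in 1 or more of the groups compared, which left 73 members between regions, 72 between genotypes in the cerebellum and 70 in the hippocampus. Ntng2, which encodes the second netrin-G, was tested nowhere. Ntn5 was not tested between genotypes in the cerebellum, nor Epha8, Ntn4 and Unc5d in the hippocampus.

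The first comparison asked where in the wild-type brain each cue and receptor was higher. Between En2WT regions, 41 of 73 members passed limma at an adjusted p of 0.05, of which 14 were higher in the cerebellum and 27 in the hippocampus. Of all 15834 genes tested, 32.0% passed, 17.2% higher in the cerebellum and 14.7% in the hippocampus. In 35 members the difference was also 2-fold or more, as in 19.7% of all genes. The median difference of the members, cerebellum minus hippocampus, was -0.21 on the log2 scale, beside 0.07 over all genes. Receptors and ligands divided unevenly. Of 35 receptors, 3 were higher in the cerebellum and 17 in the hippocampus, with a median difference of -0.81, whereas of 36 tested ligands 11 were higher in the cerebellum and 10 in the hippocampus, with a median of -0.05. With the authors' own log2 values the split was 23 against 22 of 66 members measured there. Those values move the median of all genes from 0.07 to 0.32, and the members' median then stood at 0.17, below that shift.

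**Figure D1:**
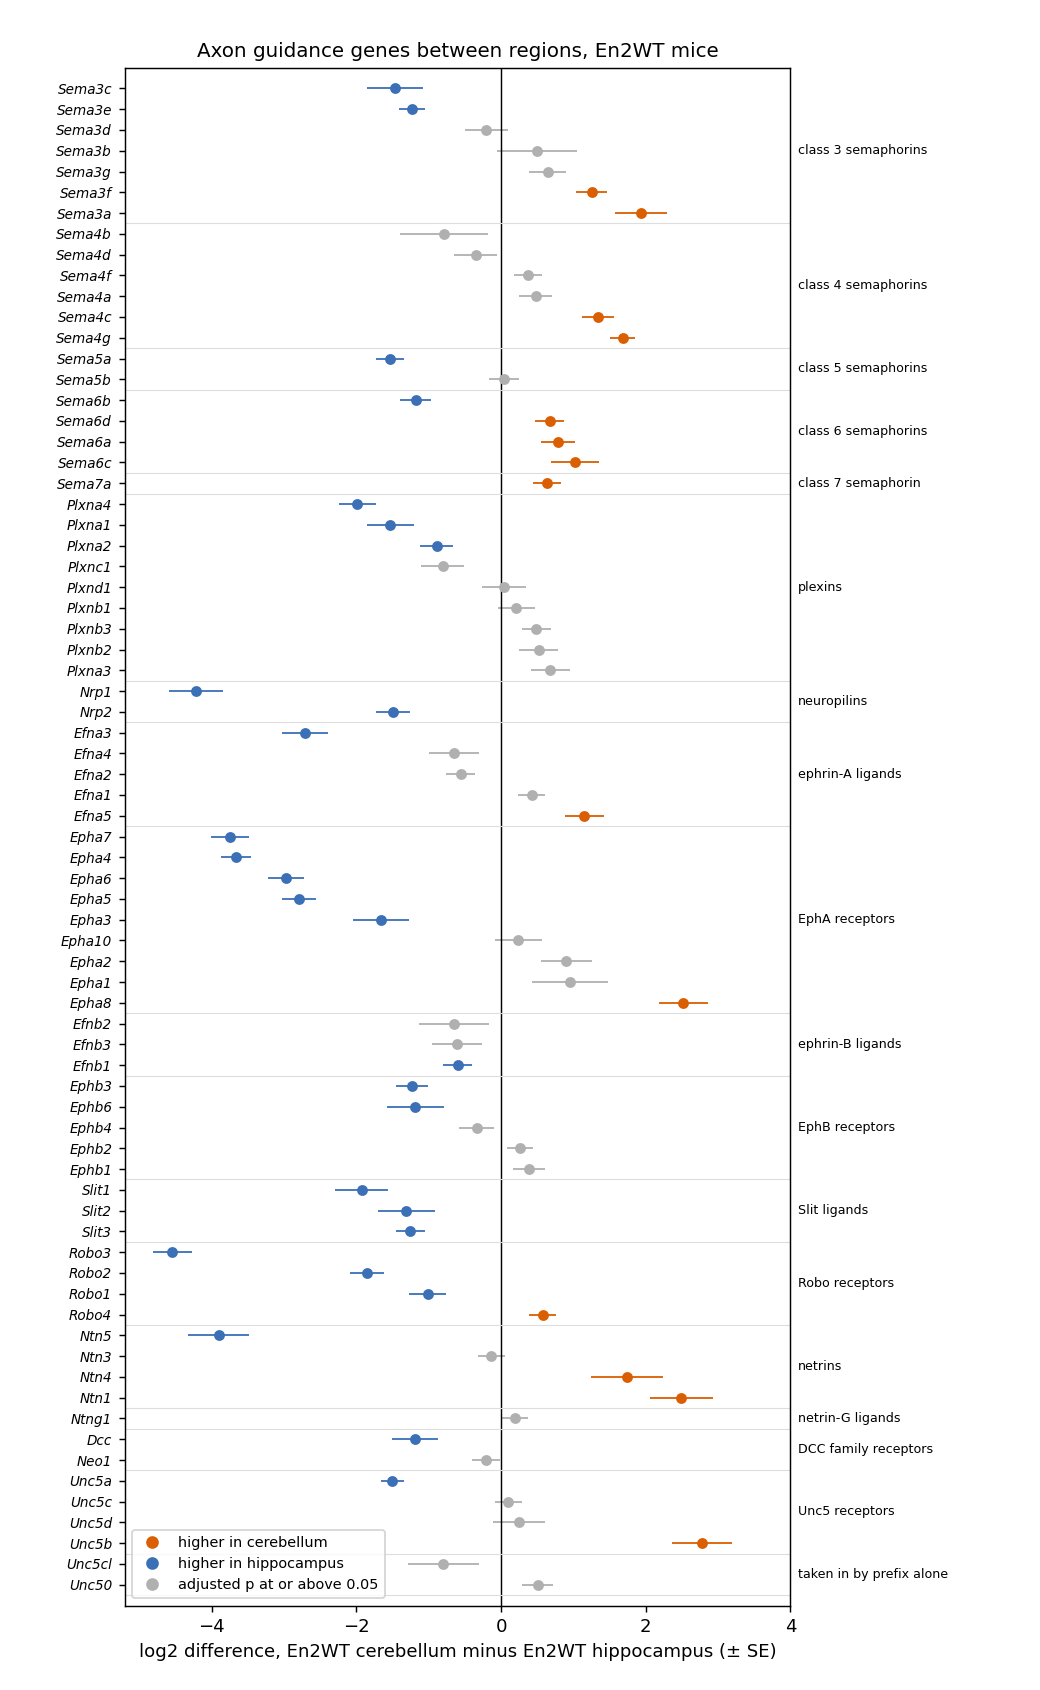
Difference in log2 signal, cerebellum minus hippocampus, in En2WT mice for each of the 73 members tested, by family, with bars of ± 1 SE and colours for the direction of those past the adjusted threshold. The widest differences are on the hippocampal side, with Robo3 at -4.54, Nrp1 at -4.22 and Ntn5 at -3.90, while Unc5b at 2.78 lies farthest on the cerebellar side.

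Slit ligands and their Robo receptors were mostly higher in the hippocampus. Robo3, an atypical receptor best known for commissural axon crossing, had the widest regional difference among the members. Its log2 signal in En2WT cerebella was 6.65, 7.19 and 7.09, and in En2WT hippocampi it was 11.58, 12.03 and 10.96. The regions lay far apart without overlap, a 23.3-fold difference (log2 -4.54, SE 0.27, limma adjusted p = 1.42e-07). Robo2 and Robo1, receptors for Slit repulsion, were lower in the cerebellum by -1.85 and -1.01. Robo4, a receptor of blood vessels, had a difference of 0.57 in the other direction (adjusted p = 0.0416), from 2 cerebellar En2WT values because 1 spot was flagged. All 3 Slits were higher in the hippocampus, Slit1 by 3.80-fold (adjusted p = 0.00165), Slit2 by 2.48-fold and Slit3 by 2.39-fold.

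Neuropilins, the co-receptors that bind class 3 semaphorins, were both higher in the hippocampus. Nrp1 read 3.77, 5.28 and 5.38 in the En2WT cerebellum, where 2 of 3 arrays were well above background, and 9.22, 8.80 and 9.07 in the hippocampus. That is an 18.6-fold difference (-4.22, SE 0.38, adjusted p = 4.88e-06). Nrp2 read 11.18, 11.24 and 11.59 in En2WT cerebella and 12.70, 12.54 and 13.26 in En2WT hippocampi. The Nrp2 regions did not overlap either, and the hippocampus was 2.81-fold higher (-1.49, SE 0.23, adjusted p = 0.00039).

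Plexins, the signalling receptors for semaphorins, divided less: 3 of 9 passed, all higher in the hippocampus. Plxna4 was 3.96-fold higher there (adjusted p = 8.67e-05), Plxna1 2.88-fold and Plxna2, with 2 hippocampal En2WT values, 1.86-fold. A second Plxna1 probe had a difference of 0.23 in the opposite direction. The other 6 plexins lay between -0.81 and 0.68 and did not pass.

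Among semaphorins the ligands went both ways, by class. Both class 4 semaphorins that passed, and 3 of the 4 class 6 semaphorins, were higher in the cerebellum. Sema4g, a transmembrane semaphorin, read 9.74, 9.88 and 9.79 in the En2WT cerebellum and 8.36, 7.89 and 8.12 in the hippocampus. The values were tight within each region and 3.21-fold apart (1.68, SE 0.17, adjusted p = 1.76e-05). Sema4c was 2.54-fold higher in the cerebellum (adjusted p = 0.000559). Sema6c was 2.03-fold higher (adjusted p = 0.0323), with a second probe at -0.34. Sema6b was the class 6 member on the hippocampal side, at -1.18.

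The secreted class 3 semaphorins divided 2 and 2. Sema3a, a repellent that acts through Nrp1, read 7.95, 8.25 and 8.25 in the En2WT cerebellum and 6.06, 6.21 and 6.37 in the hippocampus, 3.83-fold lower (adjusted p = 0.00137). Sema3f, which acts through Nrp2, was 2.38-fold higher in the cerebellum (adjusted p = 0.000958). The ligand and its co-receptor thus lay on opposite sides for both pairs, each ligand higher in the cerebellum and each neuropilin in the hippocampus. Sema3c and Sema3e lay on the same side as the neuropilins, higher in the hippocampus by 2.76-fold and 2.35-fold. Sema5a was also higher there, at -1.54, and Sema7a was higher in the cerebellum, at 0.64.

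**Figure D2:**
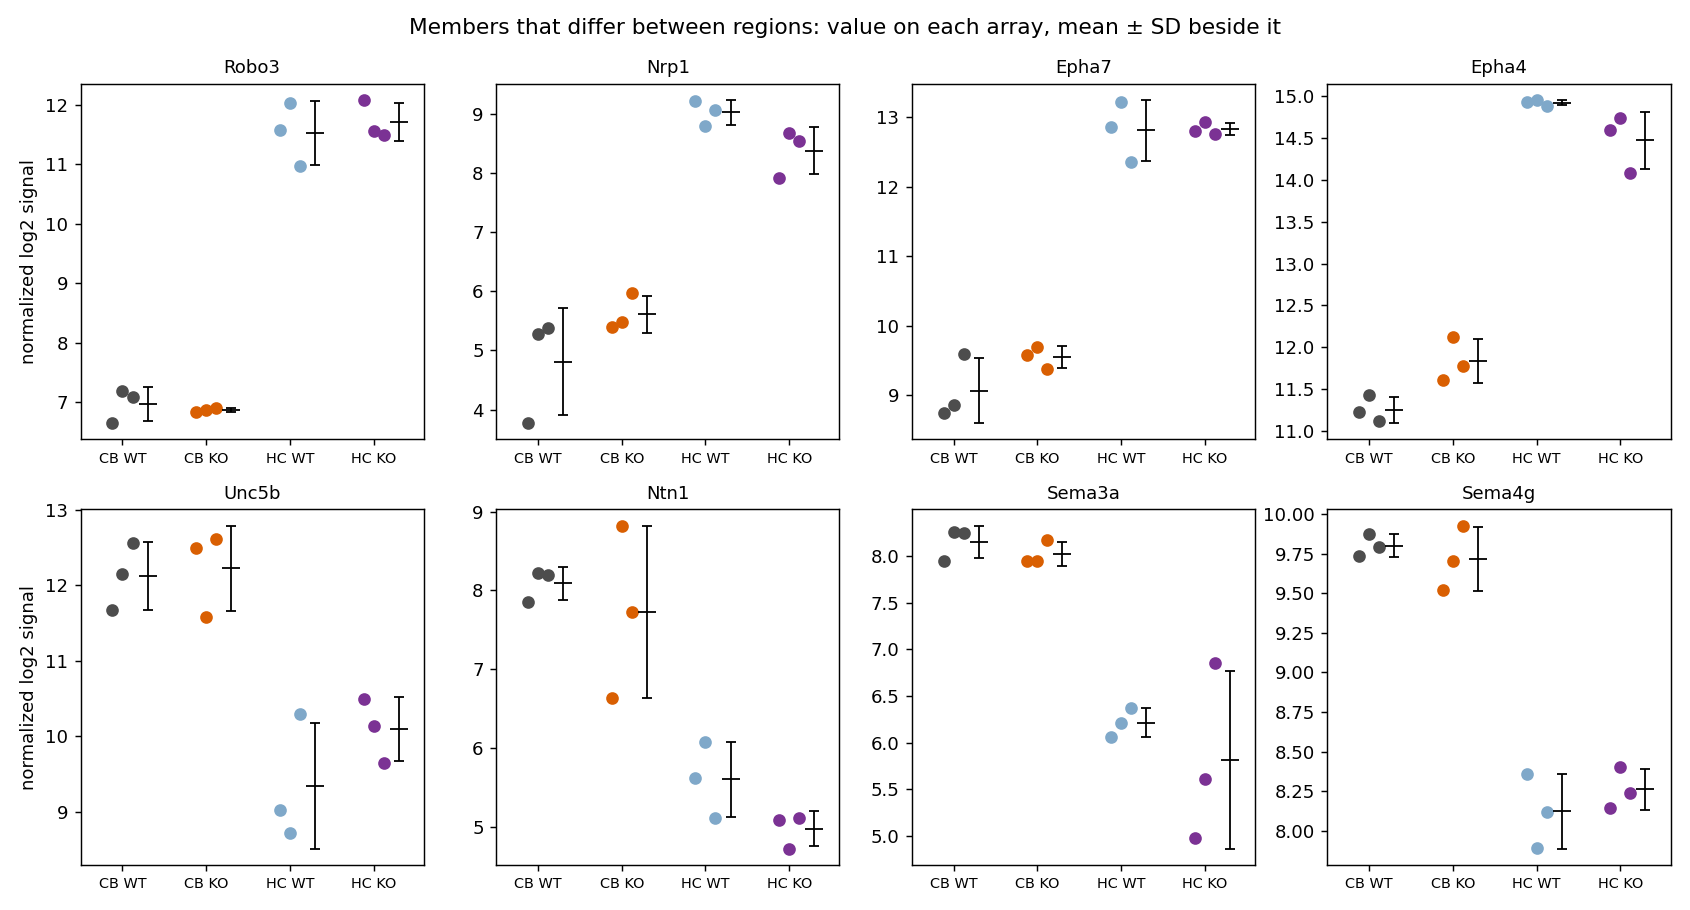
Normalized log2 signal on each array for 8 members with wide regional differences, in the cerebellum (CB) and hippocampus (HC) of En2WT (WT) and En2KO (KO) mice. Each dot is 1 array (n = 3 per group) and the bar beside it is the mean ± SD, and the axes do not start at 0. The 6 cerebellar values of Robo3, Nrp1, Epha7 and Epha4 all lie below the 6 hippocampal values, and those of Unc5b, Ntn1, Sema3a and Sema4g lie above them, the closest being Ntn1, at 6.64 in 1 En2KO cerebellum and 6.07 in 1 En2WT hippocampus.

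EphA receptors, tyrosine kinases that read graded ephrin-A signals, were the family with the most regional members. Of 9 tested, 5 were higher in the hippocampus and 1 in the cerebellum. Epha7 read 8.75, 8.86 and 9.60 in the En2WT cerebellum and 12.86, 13.23 and 12.36 in the hippocampus, a 13.4-fold difference (-3.75, SE 0.26, adjusted p = 5.34e-07). Epha4 read 11.22, 11.43 and 11.12 against 14.93, 14.95 and 14.88, a 12.7-fold difference (-3.67, SE 0.20, adjusted p = 9.1e-08). For Epha4 the arrays of a region lay close together and the regions far apart. Epha6 was 7.84-fold and Epha5 6.93-fold higher in the hippocampus, with adjusted p-values of 2.63e-06 and 3.13e-06. Epha3 was 3.16-fold higher there (adjusted p = 0.00572). Of the other Epha3 probes, 1 differed the same way, by -1.58, and 1 went the opposite way, by 1.97.

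Epha8 was the EphA receptor on the cerebellar side. It read 7.01, 6.95 and 6.47 in the En2WT cerebellum and 3.55, 4.995 and 4.32 in the hippocampus, where 1 of 3 arrays was well above background. The measured difference was 5.75-fold (2.52, SE 0.33, adjusted p = 0.000114). The EphB receptors showed less: Ephb3 (-1.23) and Ephb6 (-1.18) were higher in the hippocampus and the other 3 did not pass.

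Of the ephrin-A ligands, Efna3 and Efna5 had opposite regional profiles. Efna3 read 9.27, 9.27 and 8.14 in the En2WT cerebellum and 12.05, 11.45 and 11.33 in the hippocampus, 6.56-fold higher (adjusted p = 4.41e-05). Efna5 was 2.22-fold higher in the cerebellum (1.15, SE 0.27, adjusted p = 0.00704). The 3 ephrin-B ligands lay between -0.65 and -0.60, and of these Efnb1 passed (adjusted p = 0.0414).

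Netrins also differed in both directions. Ntn1, the founding netrin, read 7.85, 8.23 and 8.20 in the En2WT cerebellum and 5.62, 6.07 and 5.11 in the hippocampus, 5.62-fold lower (2.49, SE 0.43, adjusted p = 0.000921). Ntn4, a netrin of basement membranes, was 3.35-fold higher in the cerebellum (adjusted p = 0.0186). Ntn5 was not well above background on any cerebellar array and read 6.56, 6.01 and 7.40 in the En2WT hippocampus, so the hippocampus was at least 8.32-fold higher (limma adjusted p = 2.16e-05). It entered the test through the hippocampus alone and also passed without that filter. This bound sets the hippocampal mean against the lowest signal well above background on the cerebellar arrays.

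Netrin receptors were also of both kinds. Unc5b, a repulsive netrin receptor also found on blood vessels, read 11.67, 12.15 and 12.56 in the En2WT cerebellum and 9.02, 8.72 and 10.30 in the hippocampus. It was 6.86-fold higher in the cerebellum (2.78, SE 0.42, adjusted p = 0.00032). Unc5a went the other way, at -1.50, and Dcc, the attractive receptor, was 2.28-fold higher in the hippocampus (adjusted p = 0.0133). Of the other 3 Dcc probes, 1 was never well above background and 2 differed in the same direction, by -0.04 and -1.03. Dcc was called between genotypes in neither tissue. Its measured probes differed in the cerebellum by 0.48, 0.28 and 1.87, the last well above background on 0 of 3 En2WT and 3 of 3 En2KO arrays. Neo1, the Dcc relative, differed by -0.21 and did not pass. Ntng1 differed by 0.19 in En2WT (adjusted p = 0.456).

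Of 44 other probes that were measured for 31 of the members, 30 belonged to members past the regional test. Their difference had the same sign as the chosen probe in 27 and the opposite sign in 3, those named above for Epha3, Plxna1 and Sema6c. Background treatment changed the size of several regional differences by over 1.5-fold, though none of those named next lost its call. With normexp the Ntn5 difference was -1.23 in place of -3.90, so its bound holds for the reported processing only. Nrp1 then stood at -2.60, Epha6 at -1.82, Robo3 at -3.90, Epha8 at 1.04, Ntn1 at 1.59, Sema3a at 1.25 and Ntn4 at 0.78. With the mean of all probes Nrp1 stood at -3.34 and Sema3a at 0.84.

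The regional profile of these genes was then read in the mutant. Between En2KO regions 34 of 73 members passed, 12 higher in the cerebellum and 22 in the hippocampus, where 26.9% of all genes passed. In 30 members the difference passed in both genotypes with the same direction, 9 higher in the cerebellum and 21 in the hippocampus, as it did for 19.2% of all genes, and 0 passed in opposite directions. A further 11 members passed only among En2WT and 4 only among En2KO arrays, which is not by itself a difference between genotypes. Robo3 differed by -4.84 in En2KO, Epha7 by -3.28, Epha6 by -3.41, Ntn1 by 2.75 and Sema4g by 1.46, all past the threshold. The 4 members past in En2KO alone were Unc5c at 0.72, Plxnb3 at 0.69, Plxnb2 at 0.97 and Ntng1 at -0.57 (adjusted p = 0.0361).

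The test of the difference between the regional profiles, which is also that between the genotype effects in the 2 tissues, called 0 of 73 members by limma, the lowest adjusted p being 0.279. Among all genes 23 passed, or 0.145%. At an unadjusted p under 0.05 it picked out 12 members, beside 11.8% of all genes. The lowest unadjusted p-values among the members were those of 3 EphA receptors, and all 3 narrowed their regional difference in En2KO. Epha4 was -3.67 in En2WT and -2.63 in En2KO (limma unadjusted p = 0.00378). Epha5 was -2.79 and -1.76 (unadjusted p = 0.00963), and Epha3 was -1.66 and 0.00 (unadjusted p = 0.00996). None of these passed over all genes.

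On individual arrays Epha4 read 11.61, 12.13 and 11.77 in the En2KO cerebellum, all above the En2WT cerebellum, and 14.60, 14.73 and 14.08 in the En2KO hippocampus, all below the En2WT hippocampus. Epha5 read 10.51, 10.82 and 10.77 in the En2KO cerebellum against 10.15, 10.47 and 9.91 in En2WT, and 12.21, 12.78 and 12.38 in the En2KO hippocampus against 13.32, 13.06 and 12.54. The genotypes of Epha5 did not overlap in the cerebellum but did in the hippocampus. A second Epha4 probe had regional differences of -3.41 in En2WT and -2.82 in En2KO, with genotype differences of -0.08 in the cerebellum, where the genotypes overlapped, and -0.67 in the hippocampus. A second Epha5 probe had regional differences of -2.82 and -2.55, with a hippocampal genotype difference of 0.26, where the brightest probe had -0.51. Nrp1 stood at -4.22 in En2WT and -2.77 in En2KO (unadjusted p = 0.0194). Its other probes disagreed, 1 with -3.16 and -1.87 and 1 with -2.64 and -3.08. Efna3 (-2.71 and -1.60) and Plxna4 (-1.99 and -1.16) also lay nearer 0 in En2KO. The other Plxna4 probes disagreed, 1 with -0.70 and -0.94 and 1 with -1.94 and -1.355. Other members with an unadjusted p under 0.05 went the other way. Unc5c (0.10 and 0.72) and Ntng1 (0.19 and -0.57) lay farther from 0 in En2KO.

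**Figure D3:**
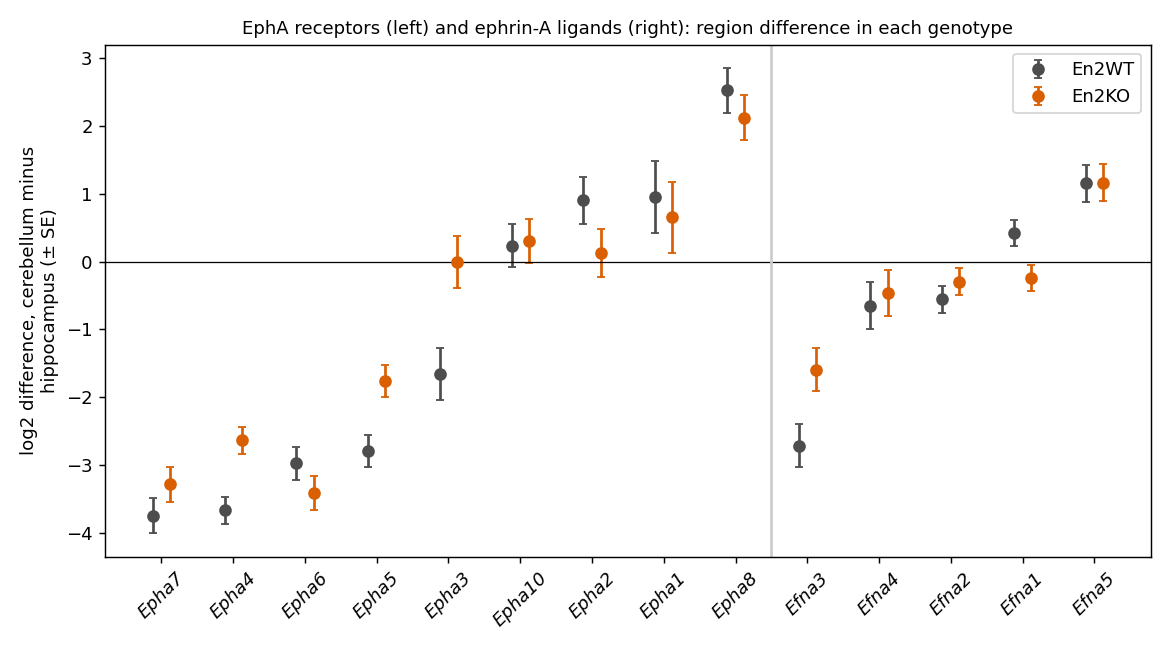
Regional difference in log2 signal, cerebellum minus hippocampus, of the 9 EphA receptors in En2WT and En2KO mice, and of the 5 ephrin-A ligands, as the mean ± SE of the fit over 12 arrays. Epha3, Epha4, Epha5 and Efna3 lie nearer 0 in En2KO than in En2WT while Epha6 lies farther from it, and none of these shifts passed the adjusted test.

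The next comparison asked which cues and receptors changed in the En2KO cerebellum. By the rank product, the permutation test of the study's methods, at an uncorrected P under 0.01, 10 of 72 members were called, 6 higher and 4 lower in En2KO. This test called 5.02% of all 15611 genes, 2.38% higher and 2.65% lower. By limma 2 members passed the adjusted threshold, Unc5cl higher and Sema3e lower, beside 0.660% of all genes. Unc5cl, which is no axon guidance receptor, entered the test through En2KO, the group in which it was high. It did not pass limma without the background filter. The median difference of the members, En2KO minus En2WT, was 0.05, beside -0.03 over all genes. The genotypes did not overlap in 8 members higher and 6 lower in En2KO, where 5.80% and 8.58% of all genes did not overlap. At an unadjusted limma p under 0.05, 7 members were higher and 5 lower, beside 9.30% of all genes in either direction.

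The probes behind the genotype results are shown first, because for Sema3e and Ntng1 different probes of a gene gave different values. Each line gives the first 30 of the 60 bases of a probe as deposited, 5′ to 3′, with the position of the whole probe in mm9.
Nrp2, chr1:62865129-62865188, plus strand: tgagccagatcacgggaactcgagagcttt
Sema3d, chr5:12586136-12586195, plus strand: gccacaaagtagatagaatgtaatggaatt
Sema3e, brightest probe, chr5:14256431-14256490, plus strand: tctgactagatactggagtgtctttgtctc
Sema3e, second probe, chr5:14254023-14254082, plus strand: atgatttttatgaggcttttcagttcggta
Ntng1, brightest probe, chr3:109584210-109584269, minus strand: tttcacagatttatggtgatcatgtgactc
Ntng1, probe with 10 spots, chr3:109946348-109946407, minus strand: gcgaagaaaaccggggcgaaattgcttcga
Unc5cl, chr17:48607755-48607814, plus strand: caagtgtctgagctaatgctatgtatttca

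Nrp2 rose in the En2KO cerebellum. It read 11.18, 11.24 and 11.59 in En2WT and 12.82, 12.30 and 12.81 in En2KO. Every mutant array lay above every wild-type array, and within the 3 slides the difference was 1.64, 1.05 and 1.22. The mean was 2.47-fold higher in En2KO (1.30, SE 0.23), with a rank product P of 0.000334 and a limma adjusted p of 0.0551, so that the 2 tests fell on opposite sides of their thresholds. In the hippocampus Nrp2 read 12.70, 12.54 and 13.26 in En2WT and 13.69, 13.36 and 13.36 in En2KO. These did not overlap either, but the slides differed by 0.99, 0.83 and 0.10, and the mean difference of 0.64 (SE 0.23) was called by neither test (rank product permutation P = 0.0484, limma adjusted p = 0.192). Nrp1, its relative, was not called, with a cerebellar difference of 0.80 and a hippocampal one of -0.65.

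Class 3 semaphorins, the ligands of the neuropilins, changed in both directions. Sema3d rose in the cerebellum, from 4.85, 4.95 and 5.86 in En2WT to 6.94, 6.49 and 6.58 in En2KO. The genotypes did not overlap, and the mean was 2.73-fold higher (1.45, SE 0.30, rank product permutation P = 0.000177, limma adjusted p = 0.105). In the hippocampus it read 5.19, 5.78 and 5.31 in En2WT and 6.43, 5.98 and 6.81 in En2KO, 1.97-fold higher (0.98, SE 0.26, rank product permutation P = 0.0044, limma adjusted p = 0.12). The slide differences there were 1.25, 0.20 and 1.50, and the hippocampal call was lost without 4 of the 6 arrays, taken out 1 at a time. It was also lost with the slide-paired rank product, without the filter, and with normexp, subtraction or the authors' values, where the difference was 0.54 to 0.55. The cerebellar call was kept under these, with a difference of 0.69 with normexp.

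Sema3e, the ligand of Plxnd1, was lower in both tissues by its brightest probe. In the cerebellum this probe read 11.20, 11.40 and 11.28 in En2WT and 9.78, 10.10 and 10.12 in En2KO, and in the hippocampus 12.29, 12.55 and 12.73 against 10.71, 11.01 and 11.12. The genotypes stood more than 1 log2 unit apart on every slide. The fall was by 1.29 (SE 0.19) in the cerebellum, with a rank product P of 0.000491 and a limma adjusted p of 0.0268, and by 1.58 (SE 0.19) in the hippocampus, with 0.0001 and 0.0131. With any 1 of the 6 arrays left out the limma adjusted p was 0.0523 to 0.144 in the cerebellum and 0.0342 to 0.0577 in the hippocampus, while the rank product called the gene each time. The second probe, at a lower position on chromosome 5, did not follow. It read 8.62, 8.95 and 9.44 in the En2WT cerebellum and 8.84, 8.68 and 8.78 in En2KO, overlapping, with a difference of -0.24. In the hippocampus it read 11.62, 11.93 and 11.69 against 11.28, 11.40 and 11.34, without overlap, with a difference of -0.41. When all probes of a gene were averaged the Sema3e differences were -0.73 and -0.74, and the rank product no longer called the gene in either tissue. The average takes in 2 dimmer probes. Their cerebellar differences were -1.63, with 2 En2WT and 0 En2KO arrays well above background, and 0.25, with 1 of each. The probe with 0.25 was well above background on every hippocampal array and differed there by -0.54. Plxnd1, the receptor, was not called, with a cerebellar difference of -0.43 and a hippocampal one of -0.31.

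Sema3a, Sema3c, Sema3d and Sema3e lie on chromosome 5, as does En2, whose probe starts at 28.5 Mb in mm9. Their probes start at 13.6, 17.2, 12.6 and 14.3 Mb. Of 100 genes with probes from Sema3d to En2, 82 were tested in the cerebellum and the rank product called 10 higher and 1 lower, or 13.4%, beside 5.02% of all genes. In the hippocampus 75 were tested, with 4 higher and 2 lower, or 8.0%, beside 4.18%. This stretch was chosen after the values were seen. Sema3d sets its edge, and the counts include Sema3d and Sema3e, which were called in both tissues. The excess over all genes is therefore partly built in. The part that position near the targeted gene has in the result was not tested. Sema3a had a cerebellar difference of -0.13 and Sema3c of -0.58, and neither was called in either tissue. A second, dim Sema3c probe differed by -1.62 in the cerebellum and -2.16 in the hippocampus. It was well above background on 2 cerebellar and 1 hippocampal En2WT arrays and on 0 En2KO arrays.

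**Figure D4:**
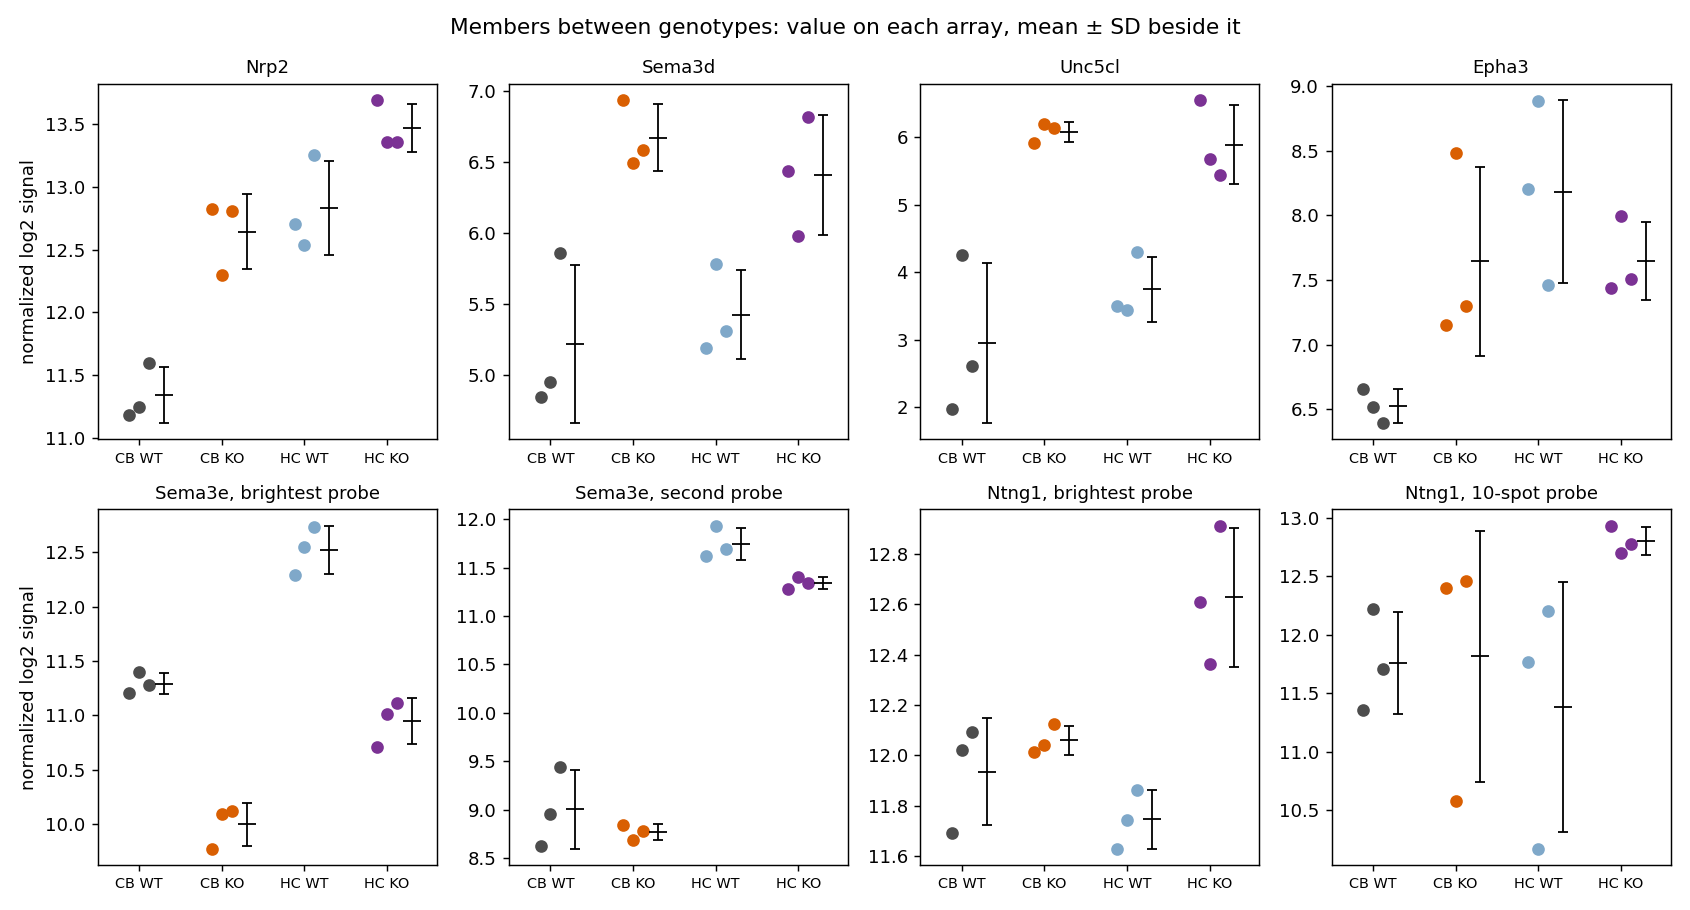
Normalized log2 signal on each array for Nrp2, Sema3d, Unc5cl and Epha3 and for 2 probes each of Sema3e and Ntng1, in the cerebellum (CB) and hippocampus (HC) of En2WT (WT) and En2KO (KO) mice. Each dot is 1 array (n = 3 per group) with the mean ± SD beside it, and the axes do not start at 0. The brightest Sema3e probe is lower in KO in both tissues without overlap, while the second probe overlaps in the cerebellum.

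Unc5cl, taken in by its prefix, encodes a death-domain protein that acts in immune signalling and is no axon guidance receptor. It read 1.97, 4.26 and 2.62 in the En2WT cerebellum, well above background on 1 of 3 arrays, and 5.91, 6.20 and 6.13 in En2KO, well above background on all 3. The measured difference was 3.13 (SE 0.51, limma adjusted p = 0.0444), and no permuted value was as extreme in the rank product. The gene entered the test in both tissues through En2KO, the group in which it was high, and without that filter its cerebellar limma adjusted p was 0.233 and its hippocampal one 0.0995. In the hippocampus it read 3.51, 3.44 and 4.30 in En2WT, below that level on all 3 arrays, and 6.56, 5.69 and 5.44 in En2KO. Its hippocampal signal was therefore at least 2.74-fold higher in En2KO (limma adjusted p = 0.0361). Its size depends on how background is treated: with another correction (normexp) the differences were 0.84 and 0.66, and the hippocampal rank product call was lost. Without 1 array the cerebellar limma adjusted p was 0.00259 to 0.182 and the hippocampal one 0.0386 to 0.155. Unc50, the other gene of this kind, was called in neither tissue.

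Of the Eph receptors, Epha3 was called higher and Epha2 lower in the En2KO cerebellum. Epha3 read 6.66, 6.52 and 6.40 in En2WT and 7.15, 8.48 and 7.30 in En2KO, 2.17-fold higher and without overlap (1.12, SE 0.34, rank product permutation P = 0.0014, limma adjusted p = 0.331). Of the other Epha3 probes, 1 differed by 1.31 and 1, well above background on all 6 cerebellar arrays, by 0.15. Without the En2KO array that read 8.48 the difference was 0.70 and the call was lost. Epha2 read 8.44, 7.37 and 6.84 in En2WT and 6.26, 6.80 and 6.12 in En2KO, 0.449-fold (rank product permutation P = 0.00141, limma adjusted p = 0.396). Its slide differences were -2.18, -0.57 and -0.72, and without the first En2WT array the difference was -0.71 and the call was lost.

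The calls of Ntn4, Sema4b and Sema6c in the cerebellum rested on few arrays. Ntn4 had slide differences of -0.60, 2.58 and 0.94, with overlapping genotypes and a mean of 0.97 (limma adjusted p = 0.623). Sema4b, with differences of -0.80, 1.31 and 2.93, also overlapped, and it entered the test through En2KO alone. In En2WT 1 array, not well above background, read 3.07, and without it the mean difference was 0.23 in place of 1.15 (0.39 with normexp). Sema6c was lower on slides 1 and 2, by -1.59 and -1.51, and differed by -0.04 on slide 3 (mean -1.05, limma adjusted p = 0.343). Robo4 read 11.74 and 11.66 on the 2 En2WT arrays that measured it and 10.76, 10.94 and 10.88 in En2KO (-0.84, SE 0.21, rank product permutation P = 0.00961, with the missing value set to the group mean, limma adjusted p = 0.22). Leaving out 1 array at a time kept the Ntn4, Sema4b and Sema6c calls in 4 of 6 cases each. The Ntn4 and Sema4b calls were also lost with normexp, subtraction and the authors' values, and the Sema6c call with the mean of probes. The Robo4 call, close to the limit, was kept in 1 of 6, with a difference of -0.88 to -0.79.

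**Figure D5:**
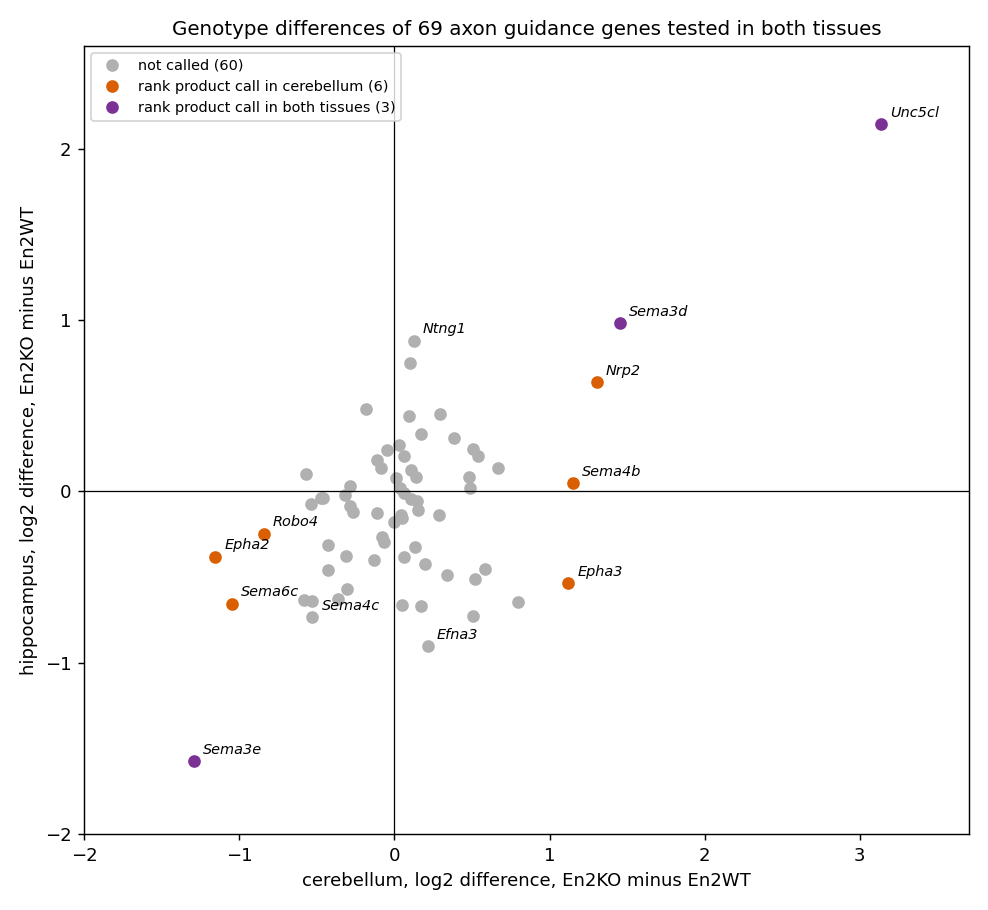
Genotype difference in log2 signal, En2KO (KO) minus En2WT (WT), in the hippocampus against the cerebellum, for the 69 members tested in both tissues. Each point is 1 gene; 3 genes, Sema3d, Sema3e and Unc5cl, were called by the rank product in both tissues (the hippocampal Sema3d call in 6 of its 15 alternative settings), 6 in the cerebellum alone and 60 in neither.

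In the En2KO hippocampus, at the limit of an uncorrected P under 0.005, the rank product called 3 of 70 members: Unc5cl and Sema3d higher and Sema3e lower. It called 4.18% of all 14990 genes, 1.82% higher and 2.35% lower. By limma Unc5cl and Sema3e passed, beside 1.33% of all genes. Unc5cl entered through En2KO here too and did not pass limma without the background filter. The members' median difference was -0.08, beside 0.05 over all genes. The genotypes did not overlap in 6 members higher and 10 lower in En2KO, where 14.9% and 11.1% of all genes, or 26.0% in either direction, did not overlap. At an unadjusted limma p under 0.05, 6 members were higher and 11 lower, beside 19.5% of all genes in either direction. As reported, the 3 hippocampal calls were also made in the cerebellum in the same direction, 3 of the 3 hippocampal and 3 of the 10 cerebellar calls. The sign of the genotype difference was the same in 44 of the 69 members tested in both tissues. The share of all genes with the same sign, or called in both tissues, was not computed, so neither count sets these genes apart.

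Ntng1, a netrin-G best known from thalamic and other projection axons, was called in the hippocampus by neither test in the reported processing. The rank product called it higher in 4 of its 15 alternative settings. These were normexp, subtraction, the authors' values and the mean of all probes. Over the 15 settings its limma adjusted p was 0.0415 to 0.273. Its brightest probe read 11.63, 11.75 and 11.86 in En2WT and 12.61, 12.36 and 12.91 in En2KO. The genotypes did not overlap and the slide differences were 0.98, 0.62 and 1.05. The mean was 1.84-fold higher (0.88, SE 0.19), with a rank product P of 0.00825, above the limit of 0.005 in this tissue, and a limma adjusted p of 0.0785. The probe with 10 spots read 11.77, 10.17 and 12.21 in En2WT and 12.94, 12.70 and 12.78 in En2KO, a difference of 1.42 without overlap, and a dimmer probe differed by -0.34. In the cerebellum the brightest probe differed by 0.12 (SE 0.19, limma adjusted p = 0.922). The difference between the tissues was -0.76 (limma unadjusted p = 0.012, adjusted p = 0.334).

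Ntng1 and Nrp2, neither of them called in the hippocampus in the reported processing, stood beside some markers of thalamic neurons that were. Of a list of 13 such markers, chosen with earlier results of these data known, 12 were tested there. The rank product called 5 higher and 0 lower in En2KO, Calb2 being at -0.16. Over all genes it called 1.82% higher and 2.35% lower. Zic1, among the 5, is also on the cerebellum marker list and had 2 En2KO values. The mean log2 level of the 12 markers, set to 0 in En2WT, ranged from -0.13 to 0.16 on En2WT arrays and from 0.47 to 1.24 on En2KO arrays. Rgs16 (1.21) and Ramp3 (1.58) passed limma, and Gbx2 was well above background on 0 of 3 En2WT and 2 of 3 En2KO arrays. In whole tissue, more cells of a type and more RNA per cell cannot be told apart. On the same arrays 3 of 10 microglial markers were called lower, with a mean level of -0.11 to 0.12 in En2WT and -0.51 to -0.41 in En2KO. Aif1 (0.59) and Trem2 (0.27) of that list went the other way, and neither was called. Also called lower were 3 of 9 choroid plexus markers, with ranges of -0.59 to 0.60 and -2.58 to 1.22. Other lists shifted as well. Hippocampal levels of dopaminergic markers ranged from -0.09 to 0.17 in En2WT and from 0.24 to 0.73 in En2KO, with 0 of 5 called. Hippocampal markers ranged from -0.13 to 0.12 and from -0.29 to -0.17, with 0 of 14 called. Of 10 cerebellar markers tested in the hippocampus, 2 were called higher. The part of these markers in the Ntng1 and Nrp2 values was not tested. In the cerebellum, where Nrp2 was called, 1 of 13 thalamic markers was higher and their level ranged from -0.10 to 0.09 in En2WT and from -0.22 to 0.04 in En2KO. There the choroid plexus list had 3 of 9 called higher, with a range of -0.15 to 0.14 in En2WT and 0.35 to 0.58 in En2KO. The meningeal list had 1 of 10 higher, with ranges of -0.19 to 0.26 and 0.20 to 0.55. Dopaminergic markers had 2 of 6 called higher, with ranges of -0.26 to 0.34 and -0.28 to 1.79. The part of these lists in the cerebellar values was not tested.

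Efna3 and Sema4c, both ligands, were the lower members with the smallest limma p after Sema3e in the hippocampus. Efna3 read 12.05, 11.45 and 11.33 in En2WT and 10.39, 10.95 and 10.78 in En2KO, without overlap (-0.90, SE 0.25, rank product permutation P = 0.00575, limma adjusted p = 0.127). The rank product called it lower in 4 of its 15 alternative settings. Sema4c read 8.18, 7.98 and 8.12 in En2WT and 7.29, 7.49 and 7.30 in En2KO, also without overlap (-0.73, SE 0.16, rank product permutation P = 0.0166, limma adjusted p = 0.0785).

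A fixed list of 87 further genes of the same pathways, their cytoplasmic effectors, co-receptors and other cues, was read in the same way, and 86 were on the array. In the cerebellum the rank product called 0 of 86, beside 5.02% of all genes, and by unadjusted limma p under 0.05, 2 were higher and 2 lower, beside 9.30%. In the hippocampus it called 6 of 85, beside 4.18%, and by unadjusted p 5 were higher and 20 lower, beside 19.5%. Mical2, an actin-oxidizing enzyme of the family that acts downstream of plexins, was higher by 1.28 (rank product permutation P = 0.00107, limma adjusted p = 0.099). The 5 lower genes were Lrrc4b, a synaptic adhesion molecule of the netrin-G ligand family (-1.37, limma adjusted p = 0.048), Rgmb, a neogenin ligand (-1.13), the kinase Gsk3b (-0.99), the adhesion molecule Dscaml1 (-0.92) and Kdr, a vascular receptor that pairs with neuropilins (-0.997).

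Lrrc4b read 10.79, 10.15 and 9.82 in the En2WT hippocampus and 8.86, 8.89 and 8.90 in En2KO, without overlap. Rgmb read 12.24, 11.32 and 11.67 against 10.55, 10.69 and 10.60, also without overlap. Beside Kdr in the hippocampus, 3 of 10 endothelial markers were called lower, with a mean level of -0.15 to 0.29 in En2WT and -0.61 to -0.36 in En2KO. Beside Robo4 in the cerebellum 0 of 10 were called, with ranges of -0.10 to 0.08 and -0.34 to -0.15. Their part in the Kdr and Robo4 values was not tested. Between En2WT regions 40.7% of the pathway list passed limma, 16 genes higher in the cerebellum and 19 in the hippocampus, beside 32.0% of all genes.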

How the data were processed

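The authors deposited, for each of 12 one-colour Agilent 4x44K arrays, the scanner software's processed intensity of every spot on a linear scale, corrected for background within the array, and a table of normalized log2 values. Per the study's methods, low-quality probes were removed with Agi4x44PreProcess, signals were quantile-normalized and genotypes were compared with RankProd. Here control and flagged spots were left out, log2 intensity was quantile-normalized over the 12 arrays, spots of a probe were averaged and the probe with the highest mean stood for its gene, named by the annotation in the cerebellum files. Genotypes were compared within a tissue by a rank product (9 array pairs, 100 permutations, a missing value set to the group mean) and by limma 3.58.1 in R 4.3.3, regions by limma over 4 groups, with Benjamini-Hochberg adjustment over all genes tested. Scripts were tested on simulated data.

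Members and gene lists were chosen with earlier results of these data known. Named were Nrp2, Ntng1, the 10 widest regional differences on each side, every member called between genotypes or in the interaction, and the 3 lowest limma p-values in each direction and tissue; others are given by family. File headers show that a replicate number was a shared slide. Deviations of same-numbered arrays correlated at -0.192 to 0.415 (median 0.057). Those of differently numbered arrays correlated at -0.416 to 0.339 (median -0.048). Where arrays share a mouse is not given, and p-values measure only the spread between these samples.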

Additional observations from a re-analysis of the deposited data

How the results depend on the processing

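The arrays, 3 per group, limit the precision, and the size of differences in dim probes depends on background treatment (Ntn5 -3.90 to -1.23, Unc5cl 3.13 to 0.84). No result of a named member reversed. The lean of the members between En2WT regions did change with the authors' own values. Their median went from -0.21 to 0.17, and that of all genes from 0.07 to 0.32. Of the members that passed, 51.1% were then higher in the cerebellum, in place of 34.1%. For all genes this share was 78.7% in place of 53.9%. Between 33 and 45 members passed between En2WT regions (41 as reported) in the other settings. These were the authors' own values, other background corrections, normalizations and filters, and single arrays left out. Of 430 values of named members between regions 421 kept their side of the threshold and 9 lost it (Sema6c 6 times, Ntn4 2 and Efna5 1). Of those between genotypes, 138 of 161 in the cerebellum and 83 of 104 in the hippocampus kept it. The cause of each change was not tested.

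The 10 rank product calls in the cerebellum became 2 at a percentage of false prediction under 0.05. The 3 in the hippocampus became 6 with the mean of all probes and 5 at the cerebellar limit. By limma the 2 cerebellar members became 1 with 75th percentile scaling, 1 with quantiles within tissue, 1 with probes well above background on all arrays, 0 without a filter, 0 with the mean of probes and 4 with the spread taken from all 12 arrays (Nrp2 and Sema3d added). The 2 hippocampal members became 1 without a filter and 1 with probes well above background on all arrays. The 0 pathway genes called in the cerebellum became 2 with normexp, 2 with subtraction, 2 with the authors' values and 1 with probes well above background on all arrays. The 6 in the hippocampus became 3 without a filter, 2 with the mean of probes, 10 at the cerebellar limit and 0 by the percentage of false prediction.

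With the replicate number as a block (the shared slide), limma kept 1 member in the cerebellum, Unc5cl (Sema3e at an adjusted p of 0.0588), and 1 in the hippocampus, Sema3e (adjusted p = 0.0355; Unc5cl 0.0812). The paired rank product called 9 and 2, without Sema3d in the hippocampus. The block moved no other count by over 1.5 times.

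Leaving out 1 array at a time, the rank product called 8 to 10 members in the cerebellum and 2 to 3 in the hippocampus, limma 0 to 1 and 0 to 2 (0 in the cerebellum without En2WT replicate 1 or any En2KO replicate, 1 without En2WT replicate 2 or 3; in the hippocampus 0 without En2WT replicate 2 or En2KO replicate 3, 1 without En2WT replicate 1 or En2KO replicate 2), the regional test 33 to 43 in En2WT and 28 to 36 in En2KO, and the interaction 0. Pathway genes numbered 0 to 3 in the cerebellum and 3 to 5 in the hippocampus (3 in the cerebellum without En2WT replicate 3; 3 in the hippocampus without En2WT replicate 3 or En2KO replicate 2 or 3). The rank product called Sema3e in 6 of 6 such cases in each tissue and Nrp2 in all of its 15 cerebellar settings, with a limma adjusted p of 0.0313 to 0.273.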
